A study of Mus musculus with 6 samples.

Results

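The Hedgehog pathway genes described here were the annotations Gas1, Boc, Cdon, Ptch1, Hhip, Smo, Sufu, Gli1, Gli2 and Gli3, 10 of the 14765 gene annotations in the deposited counts, and all 10 had enough reads to be tested. They form a group chosen because of the strong rise of Gas1 in CD24+ cells, so the change of Gas1 and the CD24+ against CD24- contrast of the whole group are given as a description, and no p-value of theirs is printed or read as evidence. RNA was sequenced from Mvt1 cells, a mouse mammary carcinoma line of the FVB/N strain that came from a tumor of a mouse carrying Myc and Vegf transgenes under the MMTV promoter. The line was stained for surface CD24 and sorted, and 3 plates of CD24- cells and 3 plates of CD24+ cells were grown in DMEM with fetal bovine serum, with no other treatment in either group. Both groups are parts of a single cell line, and no independent sorts are described, so SDs and p-values cover only how far plates of the same sorted cells varied.

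Hedgehog ligands bind Patched at the cell surface and so free Smoothened, which acts at the primary cilium to change the Gli transcription factors from repressors to activators. Gas1, Boc and Cdon are membrane co-receptors that help cells bind the ligand, while Ptch1 and Hhip bind the ligand and dampen the response. Ptch1, Hhip and Gli1 are also classical targets of Gli activity, and in the mammary gland the pathway is known mostly from signals between epithelium and stroma, with Gli3 acting largely as a repressor.

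The measurement was a count of 47-nt reads that matched the genome exactly, and 1 read of each of 3 genes shows what was counted. The most frequent coding read of Gas1 (chr13:60277447-60277493, mm9, plus strand), of Hhip (chr8:82498959-82499005, mm9, plus strand) and of Ptch1 (chr13:63628474-63628520, mm9, plus strand) are shown as deposited, each antisense to its transcript, since the library kit does not keep strand.
Gas1 read: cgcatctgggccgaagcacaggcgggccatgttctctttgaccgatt
Hhip read: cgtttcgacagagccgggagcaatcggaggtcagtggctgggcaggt
Ptch1 read: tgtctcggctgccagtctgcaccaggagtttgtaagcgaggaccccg
The Gas1 read occurred 3, 7 and 7 times in CD24+ replicates 1, 2 and 3 and not at all in the CD24- libraries. The Hhip read occurred 6, 5 and 11 times in CD24+ cells and 0, 0 and 1 times in CD24- cells. The Ptch1 read occurred 9, 5 and 1 times in CD24- cells and 2, 2 and 5 times in CD24+ cells. Single reads were therefore rare, and the gene counts came from 1480 distinct sequences for Gas1, 1943 for Hhip and 2493 for Ptch1.

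RefSeq promoter windows (GRCm38.p6) were held for 8 of the 10 genes, all but Boc and Gli1. Only a single window of each of these genes was searched, so any other start sites of theirs were not. Shares over all windows count every window held. The 250 bases before a RefSeq start site are shown for Gas1, Hhip and Ptch1, because these genes had the largest increases and the largest decrease. They lie at chr13:60177536-60177785, chr8:80058009-80058258 and chr13:63565736-63565985 on the minus strand, and capitals mark CCAAT, GC boxes (GGGCGG) and the Gli core CCACCC, on either strand.
Gas1 promoter: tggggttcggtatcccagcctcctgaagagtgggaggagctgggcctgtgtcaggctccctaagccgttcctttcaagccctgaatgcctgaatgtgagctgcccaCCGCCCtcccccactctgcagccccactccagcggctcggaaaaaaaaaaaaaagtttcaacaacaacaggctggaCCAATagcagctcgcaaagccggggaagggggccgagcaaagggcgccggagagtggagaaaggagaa
Hhip promoter: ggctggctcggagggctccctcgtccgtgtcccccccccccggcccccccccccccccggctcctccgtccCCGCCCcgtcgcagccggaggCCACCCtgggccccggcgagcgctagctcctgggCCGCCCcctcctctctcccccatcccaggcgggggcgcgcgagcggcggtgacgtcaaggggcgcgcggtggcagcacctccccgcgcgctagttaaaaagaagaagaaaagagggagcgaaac
Ptch1 promoter: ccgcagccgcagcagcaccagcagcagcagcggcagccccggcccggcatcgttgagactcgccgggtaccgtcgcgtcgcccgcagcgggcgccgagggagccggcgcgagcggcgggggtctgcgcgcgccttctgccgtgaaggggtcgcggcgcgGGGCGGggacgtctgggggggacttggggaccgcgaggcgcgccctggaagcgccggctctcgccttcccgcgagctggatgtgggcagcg
The 9-letter Gli consensus GACCACCCA was in none of the 8 windows and in 0.225% of all 32851 windows. Its core CCACCC was in 4 of 8 (Hhip, Smo, Gli2 and Gli3) and in 28.1% of all windows, CCAAT was in 2 of 8 (Gas1 and Sufu) and in 33.8%, and GGGCGG was in 6 of 8 and in 32.7%. These windows are short, and matches of letters are a description only. The Ptch1 window lies inside the span given below for the Ptch1 gene, so it belongs to an internal start site. For Gas1 the start site of the window also differs from the gene start given below.

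The counts of the 6 libraries summed to between 9046025 and 25692147 mapped reads, of which 71.8% to 74.3% were annotated to genes. Counts were scaled by edgeR's TMM method and are given as CPM, the count a gene would have per 1000000 gene reads. CD24+ replicate 1 was the shallowest library, and 3 reads correspond to 0.472 CPM there and to 0.157 CPM in the deepest. Cd24a, the gene of the sorted marker, had 12.1, 11.5 and 6.99 CPM in CD24- replicates 1, 2 and 3 and 73.3, 85.5 and 72.5 CPM in the CD24+ ones, so the libraries followed their labels. Krt8 and Krt18, keratins of luminal epithelium, were abundant in both groups (at least 555 and 200.1 CPM in every library), whereas Cdh1 had 2 reads and Epcam 6 reads over all libraries, so these defining markers of epithelium were nearly absent in the cells labelled mammary epithelial.

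Within the Hedgehog group, 3 co-receptor genes, Hhip, Gli2 and Gli3 were higher in CD24+ cells, and Ptch1 and Sufu were lower, while Smo and Gli1 overlapped between the groups. As a description only, 8 of the 10 were called at an adjusted p under 0.05 in the edgeR fit of every tested gene, 6 higher and 2 lower. Of all 11125 tested genes 46.1% passed, 23.8% as higher and 22.3% as lower, and since the genes were picked on this contrast nothing is read from the comparison. All 3 CD24+ libraries lay above all 3 CD24- libraries for 6 of the 10 genes and below them for 2, while over all tested genes the groups failed to overlap for 57.3% (29.7% above and 27.6% below). The median log2 fold-change was 1.68 for the 10 genes and 0.02 for all tested genes. In bulk samples such as these, more cells with a transcript and more transcript per cell cannot be told apart.

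**Figure D1:**
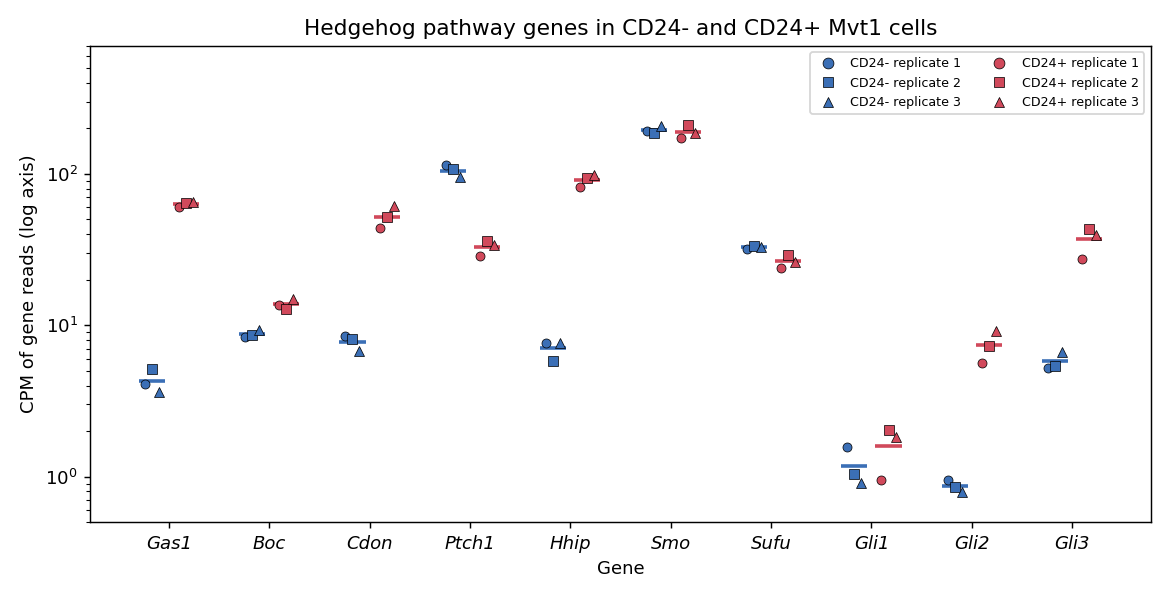
CPM of gene reads (log axis) of the 10 Hedgehog pathway genes in each library, with circles, squares and triangles for replicates 1, 2 and 3 and a bar at the group mean of 3 libraries. Gas1 lies between 60.4 and 64.8 CPM in CD24+ cells and between 3.61 and 5.12 CPM in CD24- cells, Ptch1 goes the other way, and Smo overlaps.

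Gas1, a GPI-anchored co-receptor first found as a growth-arrest-specific gene, had 4.10, 5.12 and 3.61 CPM in CD24- replicates 1, 2 and 3 against 60.4, 64.5 and 64.8 CPM in the same order of CD24+ replicates. The lowest CD24+ library was thus far above the highest CD24- library, and the CD24+ libraries lay close together. These values rest on 39, 54 and 32 CD24- reads and on 384, 1143 and 1237 CD24+ reads. The log2 fold-change was 3.88 (standard error 0.13), a 14.7-fold difference, and 0.872% of all tested genes had a larger one. Gas1 has 1 exon, on chromosome 13 of GRCm38 from 60174405 to 60177365 on the minus strand, so an exact match to the genome loses none of its reads to exon junctions. By sequence, 98.9% of its CD24+ reads and 97.6% of its CD24- reads matched a Gas1 transcript of GENCODE M21. In CD24+ cells 17.9% of these lay in the 5′ UTR, 31.0% in the coding sequence and 51.1% in the 3′ UTR. The shares in CD24- cells were 18.0%, 33.6% and 48.4%, so the 3′ UTR held the most reads in both groups. A noncoding gene, Gm48488, overlaps Gas1 on the other strand. Reads in the overlap cannot be assigned to either gene, and 2355 reads matched transcripts of Gas1 alone, against 2889 annotated reads. Before scaling to depth, reads of Gm48488 alone numbered 9 in CD24- and 90 in CD24+ libraries.

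Cdon, an immunoglobulin-family co-receptor, had 8.52, 8.05 and 6.76 CPM in CD24- libraries against 44.0, 51.7 and 61.1 CPM in CD24+ libraries. Every CD24+ library was above every CD24- library, and the CD24+ libraries were spread more widely than those of Gas1. The log2 fold-change was 2.76 (standard error 0.15). Boc, the close relative of Cdon, had 8.42, 8.62 and 9.24 CPM in CD24- libraries against 13.7, 12.8 and 15.0 CPM in CD24+ libraries. The Boc groups did not overlap either, but the log2 fold-change was only 0.66 (standard error 0.14), so of the 3 co-receptors Boc had the smallest change. Cdon spans bases 35421128 to 35507652 of chromosome 9 (plus strand, 20 exons) and Boc bases 44485049 to 44558897 of chromosome 16 (minus strand, 19 exons) in GRCm38. Boc and Cdon stood at like CPM in CD24- cells and well apart in CD24+ cells. Reads matching transcripts of no other gene, wherever annotated, were 4898 for Cdon and 786 for Boc, against 2588 and 853 annotated reads. The annotated counts thus left out many reads of Cdon, and the CPM of these 2 genes do not cover like parts of their transcripts.

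**Figure D2:**
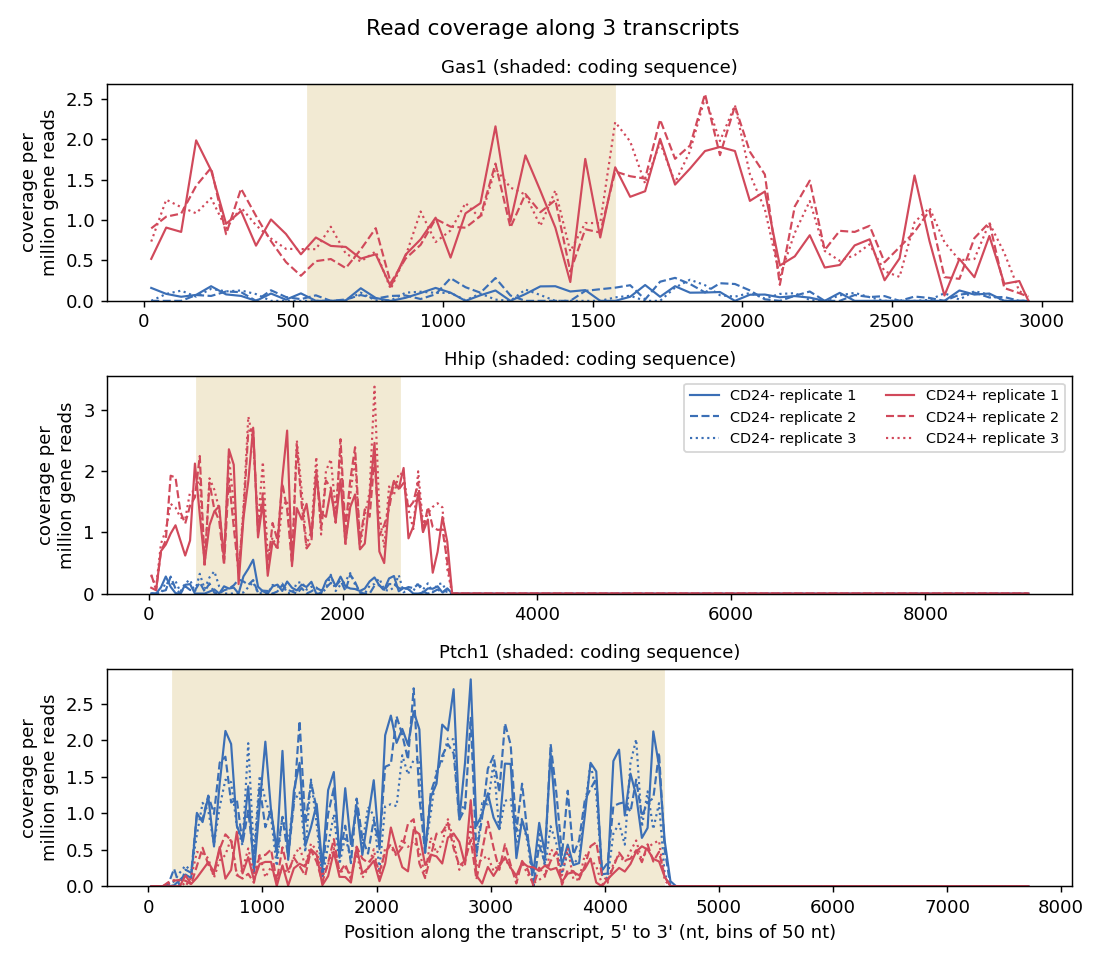
Read coverage scaled to 1000000 gene reads (y axis) along the Gas1, Hhip and Ptch1 transcripts, 5′ to 3′ in bins of 50 nt (x axis), with a line for each library, blue for CD24- and red for CD24+, and the coding sequence shaded. Red lines lie above blue in most bins of Gas1 and of the covered part of Hhip and below blue in most bins of Ptch1, with single libraries crossing in some bins, and almost no reads were annotated to the far part of the long 3′ UTRs of Hhip and Ptch1.

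The antagonists of the ligand went in opposite directions. Hhip, a membrane-bound decoy that binds Hedgehog ligands, had 7.68, 5.78 and 7.66 CPM in CD24- libraries against 82.3, 94.2 and 98.0 CPM in CD24+ libraries. All 3 CD24+ libraries were far above the CD24- ones, with a log2 fold-change of 3.71 (standard error 0.13), a 13.1-fold difference. Ptch1, the ligand receptor that holds Smoothened inactive, had 114, 107 and 94.7 CPM in CD24- libraries against 28.6, 36.0 and 33.8 CPM in CD24+ libraries. Here every CD24+ library was below every CD24- library, and the log2 fold-change was -1.67 (standard error 0.11), so CD24- cells held 3.17 times the CD24+ level. In GRCm38, Hhip spans bases 79965851 to 80058006 of chromosome 8 and Ptch1 spans bases 63508328 to 63573598 of chromosome 13, both on the minus strand. Hhip and Ptch1 have 13 and 23 exons, and the deposited annotation left out most of their GENCODE 3′ UTRs. In CD24+ cells 15.96% of the Hhip reads on transcripts lay in its 3′ UTR, against 0.15% of those of Ptch1. Reads matching transcripts of no other gene, wherever annotated, were 9870 for Hhip and 7705 for Ptch1, against 4265 and 4519 annotated reads. With those reads in place the log2 fold-changes were 3.58 and -1.66.

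Smo, the membrane protein that passes the signal on, had 193, 186 and 206 CPM in CD24- libraries against 173, 211 and 185 CPM in CD24+ libraries. The groups overlapped, and the log2 fold-change was -0.04 with an approximate 95% interval (1.96 standard errors) from -0.21 to 0.14. Its sign turned when CD24- replicate 3 (0.004) or CD24+ replicate 1 (0.015) was left out. Sufu, which holds Gli proteins inactive in the cytoplasm, had 31.9, 33.6 and 33.1 CPM in CD24- libraries against 23.9, 29.2 and 26.1 CPM in CD24+ libraries. Its groups did not overlap, but the difference was small, with a log2 fold-change of -0.31 (standard error 0.10). The Sufu call was lost in 8 of 14 alternatives, among them without CD24- replicate 1 (-0.33) or 2 (-0.29) and without CD24+ replicate 1 (-0.26) or 3 (-0.31), while its log2 fold-change stayed below 0. Smo (29735503 to 29761365 of chromosome 6) and Sufu (46396896 to 46488804 of chromosome 19) are plus-strand genes of 12 exons each in GRCm38, and Smo holds a pseudogene, Gm13717, with which reads could be shared. For Sufu, 3552 reads matched transcripts of no other gene, against 2119 annotated reads.

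**Figure D3:**
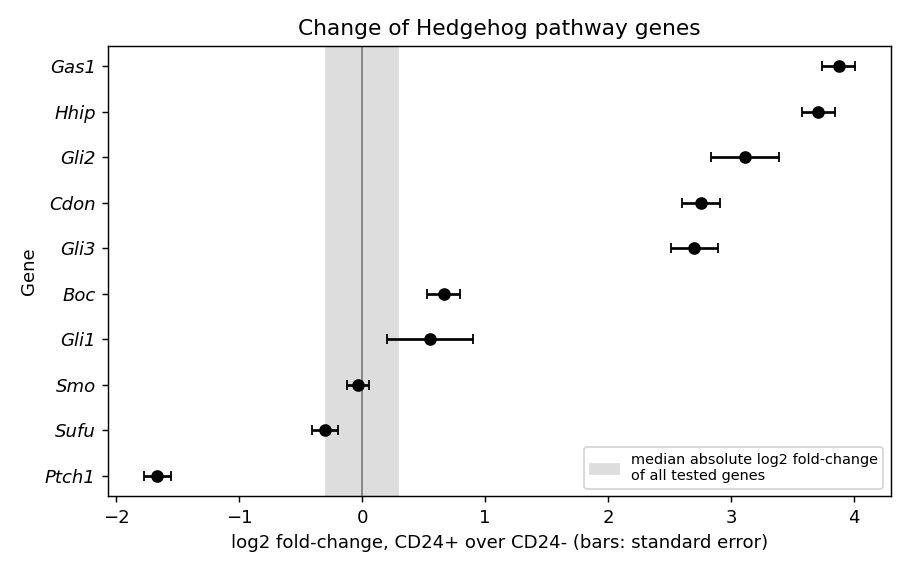
Log2 fold-change of CD24+ over CD24- cells (x axis) for each of the 10 genes (y axis), with bars for the standard error. Standard errors were worked out from edgeR's F statistic, with 3 libraries a group. Gas1 (3.88), Hhip (3.71), Gli2 (3.11), Cdon (2.76) and Gli3 (2.70) stand above a gap, with Boc (0.66) and Gli1 (0.55) below it. Smo (-0.04) and Sufu (-0.31) lie nearer 0, and Ptch1 is at -1.67.

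The 3 Gli transcription factors differed among themselves. Gli1, an activator, was barely read, with 15, 11 and 8 reads in CD24- libraries and 6, 36 and 35 reads in CD24+ libraries. That is 1.58, 1.04 and 0.902 CPM against 0.944, 2.03 and 1.83 CPM, so the groups overlapped. The log2 fold-change of Gli1 was 0.55 with an interval from -0.13 to 1.24, and without CD24- replicate 1 it was as large as 0.81. This interval includes both 0 and the change of Boc. Gli2, the main activator in many tissues, had 9, 9 and 7 reads in CD24- libraries and 36, 130 and 174 reads in CD24+ libraries. It had 0.947, 0.853 and 0.789 CPM in CD24- libraries against 5.66, 7.34 and 9.11 CPM in CD24+ libraries, without overlap, and the log2 fold-change was 3.11 (standard error 0.28). Gli2 passed the filter on low counts only through its CD24+ libraries. Gli1 spans bases 127329882 to 127341974 of chromosome 10, where Arhgap9 and Gm47200 overlap it on the other strand, and Gli2 spans bases 118834132 to 119053619 of chromosome 1, both on the minus strand of GRCm38.

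Gli3, mostly a repressor, lies on the plus strand of chromosome 13 of GRCm38 from 15463235 to 15730026 with 15 exons. It had 5.26, 5.40 and 6.65 CPM in CD24- libraries against 27.5, 43.5 and 39.7 CPM in CD24+ libraries. Its CD24+ libraries were all higher, and CD24+ replicate 1 was the lowest of them. The log2 fold-change was 2.70 (standard error 0.19), but it depended on which reads were counted. Only 53.6% of the 166 Gli3 reads of CD24- cells matched a Gli3 transcript, against 89.1% of the 1703 reads of CD24+ cells. Reads on transcripts went from 3.12 ± 0.732 CPM to 32.6 ± 8.11 CPM (SD, n = 3 each). The other reads annotated to Gli3, which do not match its transcripts, went from 2.65 ± 0.486 to 4.31 ± 1.09 CPM. Counting reads that match transcripts of a single gene gave a log2 fold-change of 3.40. For none of the other 9 genes did the transcript share of the reads differ as much, the next being Gli2 with 88.0% of 25 reads in CD24- and 94.4% of 340 reads in CD24+ cells.

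Levels of different genes were compared as reads in the coding sequence per 1000 coding positions that a read can cover within an exon and per 1000000 gene reads. In CD24- cells the order was Smo (71.1 ± 2.25), Ptch1 (28.8 ± 3.21), Sufu (15.1 ± 1.33), Hhip (3.11 ± 0.464), Boc (2.55 ± 0.0558), Cdon (2.30 ± 0.327), Gas1 (1.36 ± 0.420), Gli3 (0.371 ± 0.127), Gli1 (0.361 ± 0.0684) and Gli2 (0.151 ± 0.0364; SD, n = 3 each). The ranges of Hhip and Boc, of Boc and Cdon and of Gli3 and Gli1 overlapped, and the other neighbours did not. In CD24+ cells the order was Smo (70.0 ± 7.61), Hhip (39.7 ± 3.05), Gas1 (19.3 ± 1.16), Cdon (15.8 ± 2.37), Sufu (12.9 ± 0.289), Ptch1 (8.99 ± 0.971), Gli3 (4.26 ± 1.19), Boc (3.96 ± 0.457), Gli2 (1.18 ± 0.277) and Gli1 (0.487 ± 0.139). Gas1 and Cdon overlapped there, as did Gli3 and Boc. On this scale Smo was the highest of the 10 in both groups, Gas1 moved from place 7 to place 3, and Ptch1 moved from place 2 to place 6.

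Of the ligands, no read was annotated to Shh or Dhh in any library and none matched their transcripts, which allows up to 0.472 CPM in the shallowest library by counting error alone. Ihh had 10 reads over all libraries. Over 13 genes of ligands and their release 5 were tested, of which 2 passed as higher and 1 as lower, 60% beside 46.1% of all genes. Disp1, which releases the lipid-bound ligand, went from 43.8 ± 3.03 to 20.1 ± 2.53 CPM (SD over 3 libraries), a log2 fold-change of -1.10 (adjusted p = 2.88e-05, edgeR). Gpc6, a glypican of the cell surface, rose from 1.62 ± 0.271 to 30.2 ± 3.92 CPM, a log2 fold-change of 4.22 (adjusted p = 8.22e-08, edgeR). Only 727 reads matched transcripts of Gpc6 and of no other gene, against 1394 annotated reads. The median log2 fold-change of the list was 0.43.

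Genes that act between Smoothened and Gli, among them kinases and parts of ubiquitin ligases, were called at a share near that of all genes. Of 17 tested from 21 listed, 5 passed as higher and 1 as lower, 35.3% against the 46.1% of all genes, and the median log2 fold-change was -0.01. The largest called increase was that of Stk36, a kinase related to Drosophila fused (2.05 ± 0.389 to 3.29 ± 0.231 CPM, adjusted p = 0.0413 by edgeR, log2 fold-change 0.67), whose call was lost in 9 of 13 alternatives, with each of the 6 libraries left out among them. The only gene called lower among the annotations was Mgrn1, a ubiquitin ligase that lowers Smoothened at the surface (102 ± 3.82 to 85.6 ± 5.58 CPM, adjusted p = 0.0295 by edgeR, log2 fold-change -0.25). The Mgrn1 call was lost without CD24- replicate 1 (-0.27) or 2 (-0.22) and without CD24+ replicate 1 (-0.22) or 2 (-0.24). The count for this list went from 6 to 2 without CD24- replicate 2, to 3 without CD24- replicate 1 or without CD24+ replicate 1, and to 8 with reads of a single M21 gene. Kif7, a cilium-tip kinesin that acts on Gli proteins, was not among the annotations. By transcript match Kif7 was at 7.72 ± 1.18 CPM in the CD24- group and fell to 4.52 ± 0.235 CPM in the CD24+ group (SD over 3 libraries), with -0.77 as its log2 fold-change (adjusted p = 0.00655, edgeR).

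All 24 listed genes of transport in the primary cilium and of its gate were tested, and 12 passed as higher, 1 as lower and 11 did not pass. That is 54.2% called beside 46.1% of all genes, of which 23.8% were higher and 22.3% lower, with a median log2 fold-change of 0.33 beside 0.02 for all genes. Dync2li1, a light intermediate chain of the retrograde dynein, had the largest called increase (4.46 ± 1.52 to 10.2 ± 2.09 CPM, adjusted p = 0.00385 by edgeR, log2 fold-change 1.19). Kifap3, the adaptor of the anterograde kinesin, was the only gene of the list called lower (70.0 ± 0.330 to 50.3 ± 3.91 CPM, adjusted p = 0.00139 by edgeR, log2 fold-change -0.47).

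Among 23 genes listed as known Gli targets in other tissues, 11 had enough reads, of which 9 passed as higher, 1 as lower and 1 did not pass, beside 23.8% higher and 22.3% lower over all genes. The median log2 fold-change of the 11 was 3.42. Several of them, such as Bmp4, passed the filter on low counts only through their CD24+ libraries, so this count and median are no support for a direction of the list. Bmp4, a secreted growth factor, had 1, 3 and 3 reads in CD24- libraries and 0.243 ± 0.122 CPM, against 5.17 ± 1.01 CPM in CD24+ cells (log2 fold-change 4.37). Jag2, a Notch ligand, fell from 21.8 ± 1.10 to 8.46 ± 0.399 CPM (adjusted p = 9.91e-06 by edgeR, log2 fold-change -1.36). Among those with ample reads, chosen after their values were seen, Ccnd2 rose from 7.12 ± 1.04 to 108 ± 13.3 CPM and Ccnd1 from 738 ± 63.1 to 1004 ± 29.1 CPM, both encoding D-type cyclins. Snai1, a transcriptional repressor, was the target that did not pass (adjusted p = 0.298 by edgeR, log2 fold-change 0.16). These targets are shared with other pathways. Within the Hedgehog group itself the targets Ptch1, Hhip and Gli1 had log2 fold-changes of -1.67, 3.71 and 0.55, so they did not move as 1 group.

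**Figure D4:**
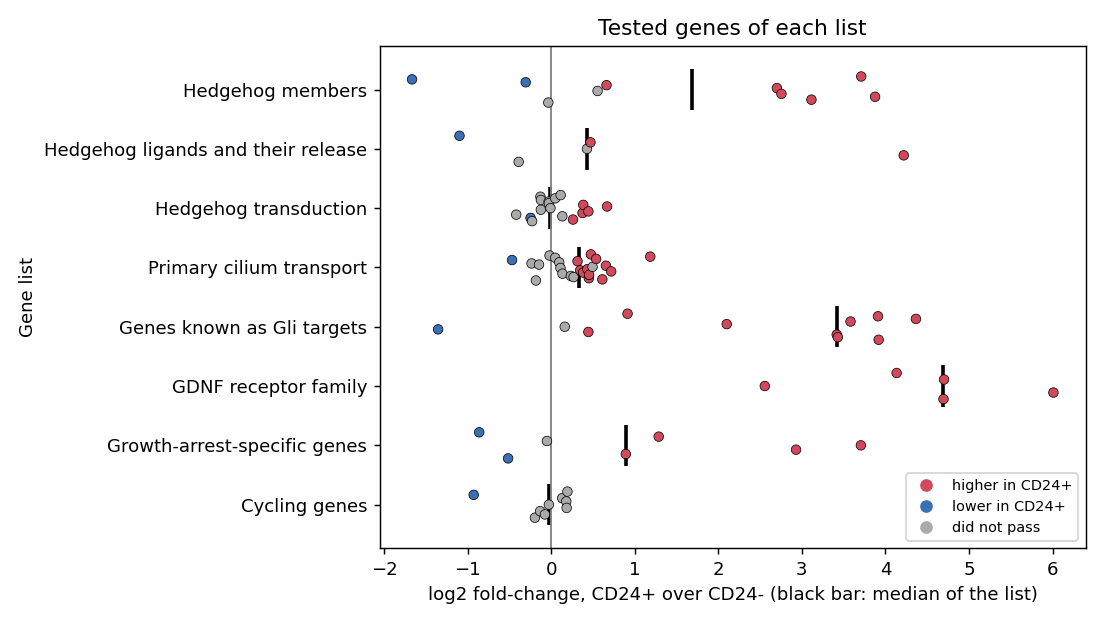
Log2 fold-change of CD24+ over CD24- cells (x axis) of every tested gene in the Hedgehog group and 7 other lists (y axis), red for genes that passed as higher, blue for lower and grey for neither, with a black bar at the median. The medians are 1.68 for the Hedgehog group, 3.42 for Gli targets, 4.70 for the GDNF receptor family, and -0.01 and -0.03 for transduction and cycling genes.

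Gas1 is related in structure to the GDNF family receptors, and Ncam1 also binds GDNF. Of 11 genes of that family 5 were tested and all 5 passed as higher, beside 23.8% of all genes, with a median log2 fold-change of 4.70, but most of them were tested only through the reads of CD24+ cells, so the count supports no direction. Gfra1, the GDNF receptor, had 1 read in CD24- and 127 reads in CD24+ libraries, a ratio of 85.1 after scaling to depth, with an exact 95% interval from 15.0 to 3389 for counting error alone. Without CD24- replicate 1, which held that read, no CD24- read of Gfra1 remained. Ret, the signalling partner of these receptors, had no read by annotation or by transcript match.

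Genes named growth-arrest-specific, as Gas1 is, had 7 of 9 tested, of which 4 passed as higher and 2 as lower, beside 23.8% and 22.3% of all genes. Gas7, a cytoskeletal adaptor, had 6, 7 and 0 reads in CD24- libraries against 30, 116 and 119 reads in CD24+ libraries, and passed the filter on low counts only through the latter (log2 fold-change 3.71). Gas2l3, a cytoskeletal linker, fell from 88.1 ± 2.31 to 47.7 ± 10.9 CPM (adjusted p = 6.28e-04 by edgeR, log2 fold-change -0.86). Of 9 cycling genes tested 11.1% were called, beside 46.1% of all genes, so that 8 did not pass, Rrm2, a subunit of ribonucleotide reductase, fell (519 ± 57.01 to 273 ± 29.3 CPM, adjusted p = 5.72e-05 by edgeR, log2 fold-change -0.93), and the median log2 fold-change was -0.03. Their summed level was 3138 to 3369 CPM in CD24- and 2738 to 3392 CPM in CD24+ libraries.

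The genes whose pattern was most like that of Gas1, by the root mean square difference of centred log2 CPM over the 6 libraries among 9203 genes, were Cdh2 (0.144), Mpdz (0.155), Flrt2 (0.176), Col8a1 (0.183) and Ntn1 (0.184). Cdh2, or N-cadherin, went from 3.93 ± 0.209 to 53.8 ± 2.73 CPM, and Ntn1, the secreted guidance factor netrin 1, went from 22.5 ± 5.01 to 264 ± 17.04 CPM. Of the Hedgehog genes with a mean log2 CPM of 3 or more, Hhip was nearest to Gas1 by this measure, at place 37 (0.287). Cdon followed at place 112 (0.587) and Gli3 at place 126 (0.675), while Gli1 and Gli2 had too few reads to be ranked. With 2 groups of 3 libraries this measure mostly ranks genes by the size of their change.

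The nearest tested genes on either side of Gas1 on chromosome 13 of GRCm38 were not called higher. Isca1, 404595 bases before it, had 55.6 ± 3.37 CPM in CD24- cells against 52.5 ± 2.56 CPM in CD24+ cells (adjusted p = 0.454 by edgeR, log2 fold-change -0.09), though with reads of a single M21 gene it was called lower (-0.35, adjusted p = 0.0324, edgeR). Dapk1, 424582 bases after it, went from 194 ± 3.43 to 150 ± 13.2 CPM (adjusted p = 0.00446 by edgeR, log2 fold-change -0.37). Ptch1 and Gli3 lie on the same chromosome, where the median log2 fold-change of 349 tested genes was -0.09.

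Markers of other cell types were read beside these results, where 46.1% of all genes were called, 23.8% higher and 22.3% lower. Fibroblast markers had 4 of 7 tested, called higher in CD24+ cells, but Dcn, Col1a1 and Col1a2 passed the filter only through CD24+ libraries, and Pdgfra overlapped between the groups. Their sum was 5.75 to 10.4 CPM in CD24- and 14.9 to 20.4 CPM in CD24+ libraries, with Lum and Thy1 at 0 reads and Fap at 2. Pericyte markers summed to 3.94 to 6.21 and 51.6 to 81.0 CPM with 2 of 4 tested and called higher, nearly all of it Pdgfrb. Mcam, the other one tested, passed the filter only through CD24+ libraries, while Rgs5 and Cspg4 had 1 read each. Of 7 luminal markers 3 were tested, Krt8, Krt18 and Krt19, and all 3 were called lower, with a sum over the list of 1847 to 2041 CPM against 759 to 902 CPM. Basal markers had 1 of 6 tested, Acta2, which passed the filter only through CD24+ libraries (sums 0.421 to 1.35 and 6.72 to 14.1 CPM). Endothelial markers summed to at most 3.98 CPM, with Cdh5 called lower in CD24+ cells after passing the filter only through CD24- libraries, and 2 reads of Kdr. Leukocyte markers were almost all Cd68, which fell (43.4 to 76.1 against 6.94 to 9.44 CPM), with 2 reads of Ptprc and none of Cd3e. The part of these differences in the changes of the Hedgehog genes was not tested.

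Median coverage, quantile normalization and an added regularizer of 10, as described for the study, were also applied. Coverage was taken along a chosen GENCODE M21 transcript per gene, from reads matching a single gene, not on the study's annotation. Under these steps the log2 fold-changes shrank to 0.86 for Gas1, 0.98 for Hhip, 0.64 for Cdon, 0.29 for Gli3 and -0.74 for Ptch1, in the same directions. Boc (0.13) and Sufu (-0.12) no longer passed there, and Gli1 and Gli2 had coverage too low to be tested.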

How the data were processed

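Messenger RNA of 3 CD24- and 3 CD24+ plates was read as 51-nt single-end reads from unstranded libraries. The authors cut 2 nt off both ends, merged identical reads while keeping their number, and placed each sequence by exact match at 1 genome position with 1 annotation. They deposited the count of each sequence per library, not normalized and not pooled. The submitters' processing notes name mm9, whereas the mapping tool and the annotation version were not given in the sources used here. Exact matching loses reads across exon junctions and over variants.

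The deposited counts were summed per annotation, leaving out repeats (7.56% to 10.2% of reads), small RNAs (0.355% to 0.468%) and reads without annotation (16.9% to 20.2%). Of 14765 gene annotations 12642 were current symbols and 1789 synonyms. Gene coordinates, exons and transcripts are those of GENCODE M21 (GRCm38), to which reads were matched by sequence, never by coordinates. Genes passing filterByExpr were tested with edgeR 4.0.16 (TMM, quasi-likelihood F test, Benjamini-Hochberg adjustment) in R 4.3.3. Standard errors were taken as the absolute log2 fold-change divided by the square root of the F statistic. Intervals of 1.96 such standard errors are likely too narrow with 3 libraries a group. On simulated counts, 100% of 200 genes changed 4-fold were recovered among 11086 tested, with 0.0643% false calls. The changed genes were drawn only from those above a minimum read share, and every gene had the same dispersion. Far fewer genes were changed than the 5130 called here. The simulation therefore checks that the steps run as intended and does not give error rates for these data, least of all for genes with few reads. As alternatives, results were recomputed with DESeq2 1.42.0, no or another low-count filter, distinct sequences counted once, library totals without TMM, a block for replicate number, a minimum fold-change, libraries dropped in turn, reads of a single M21 gene and the study's median-coverage steps with limma 3.58.1, for genes with a median coverage of at least 1 in 3 libraries. Libraries of a group differed by more than sampling noise, but unevenly. The chi-square per degree of freedom was 1.71 for CD24- replicates 1 and 2 and 9.33 to 15.2 for the other pairs within a group. These 2 CD24- libraries were thus far more alike than any other pair within a group. SDs and p-values that rest on the CD24- libraries may therefore understate how far such plates varied. The genes and lists were chosen with earlier results of these data known. Beyond the Hedgehog group, the genes named were the largest called increase and decrease of each list, Shh, Ihh, Dhh, Kif7, the 5 genes most like Gas1 (mean log2 CPM 3 or more), its tested neighbours and Cd24a, except where stated, and some genes of this rule are not reported here.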

Additional observations from a re-analysis of the deposited data

How the results depend on the processing

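Directions held for every Hedgehog gene but Smo under each alternative that gave a value. The total of 5130 called genes became 1600 with a minimum log2 fold-change of 1, and 3159 (1509 higher, 1650 lower) with the study's median-coverage steps, where 2 transduction genes and 1 gene of the GDNF receptor family were called. Counting each distinct sequence once gave 1550 lower genes, and the cause was not tested. Without any single library 4069 to 5358 genes were called, 2 to 5 transduction genes and 1 or 2 cycling genes. The fewest genes were called without CD24- replicate 1 (2177 higher, 1892 lower) and the most without CD24- replicate 3 (2810 higher, 2548 lower). The latter fit keeps the 2 CD24- libraries that were most alike. Sufu no longer passed with distinct sequences (-0.21), reads of a single M21 gene (-0.21) or median coverage (-0.12), and its value lay between -0.39 and -0.26 with each library left out. Boc no longer passed with median coverage (0.13). Smo lay between -0.13 and 0.015 with each library left out, turning sign without CD24- replicate 3 (0.004) or CD24+ replicate 1 (0.015). The groups share replicate numbers, but same-numbered libraries did not deviate together (correlations 0.0185, -0.32 and -0.368), and no library correlated best with its own number. The replicate block gave 4493 calls, 3 transduction genes and no call of Sufu (-0.32). Gli1 rests on 111 reads over all libraries, the fewest of the 10 genes.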
